A study of Homo sapiens with 6 samples.

Results

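The expression of 10 genes encoding heat shock chaperones was followed after knockdown of ALYREF in the human line 786-O, which derives from a clear cell renal cell carcinoma. ALYREF is an adaptor that loads messenger RNA onto the nuclear export machinery. The genes were chosen by symbol: HSPB1, DNAJB1, HSPA1A, HSPA1B, HSPA8, HSPH1, HSP90AA1, HSP90AB1, HSPD1 and HSPE1. Of these 10, 8 have a row in both deposited tables, among 11679 genes in all. HSPA1A and HSPA1B, the stress-inducible HSP70 genes, were not analysed here. RNA came from 6 libraries, 2 each of cells transfected with ALYREF siRNA5, with ALYREF siRNA8 and with a non-targeting control siRNA (NTC). All groups received the same transfection reagent, were grown in RPMI with 10% fetal bovine serum, were split at 24 h and were harvested at 48 h after transfection. The labels name 1 cell line and do not say whether duplicates came from separate cultures, so the p-values reflect the scatter among the libraries at hand, which may be technical.

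Heat shock chaperones keep other proteins from aggregating and help them to fold. HSP70 proteins bind exposed hydrophobic stretches in cycles of ATP hydrolysis that J-domain proteins start and exchange factors end, HSP90 proteins receive clients from HSP70, and the HSP60 and HSP10 proteins form a folding chamber in mitochondria. Many of their genes are induced in stress by heat shock factor 1 (HSF1), which binds arrays of the unit GAA and its inverse in promoters, and several are highly expressed in unstressed cancer cells.

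DNAJB1 and HSPB1 changed with both siRNAs and in opposite directions, so the promoter bases before their starts are printed here, followed by the sites in 4 other members. The sequences come from RefSeq (GRCh38.p14), are written 5' to 3' on the strand of the gene and carry in capitals the heat shock units, that is GAANNTTC or TTCNNGAA and their longer arrays. The farther of the 2 DNAJB1 sites begins 77 bases before its start, and the HSPB1 site 182 before its own. Stretches that any exon of the GENCODE 29 annotation covers were left out for DNAJB1 (minus strand, chr19:14518421-14518647) and HSPB1 (plus strand, chr7:76302423-76302543).
DNAJB1: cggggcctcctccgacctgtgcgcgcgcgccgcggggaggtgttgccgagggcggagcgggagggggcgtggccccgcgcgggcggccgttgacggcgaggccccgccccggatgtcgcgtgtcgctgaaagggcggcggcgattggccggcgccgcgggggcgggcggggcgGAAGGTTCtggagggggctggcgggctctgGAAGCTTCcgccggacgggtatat
HSPB1: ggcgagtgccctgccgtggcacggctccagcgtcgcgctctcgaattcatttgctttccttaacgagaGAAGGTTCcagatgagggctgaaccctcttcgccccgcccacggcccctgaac
HSPA8, far: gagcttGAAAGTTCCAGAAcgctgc
HSPA8, near: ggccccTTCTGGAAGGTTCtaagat
HSP90AA1: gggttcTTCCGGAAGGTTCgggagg
HSP90AB1, far: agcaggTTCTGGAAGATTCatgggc
HSP90AB1, near: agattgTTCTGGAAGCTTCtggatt
HSPD1: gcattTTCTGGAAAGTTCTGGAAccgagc

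The last 6 lines give every array of 3 or more units in these windows, with up to 6 flanking bases. HSPA8 and HSP90AB1 hold 2 arrays of equal length each. They begin 230 and 55 bases before the HSPA8 start on chromosome 11, and 165 and 112 bases before the HSP90AB1 start at 44247943 on chromosome 6. The others begin 88 bases before the HSP90AA1 start at 102087044 on chromosome 14 and 245 before the HSPD1 start at 197499840 on chromosome 2. RefSeq lists further starts for some members, and the windows at the other 2 starts of HSP90AB1, the other start of HSP90AA1 and the other start of HSPD1 held no unit pair. DNAJB1 has 3 listed starts, of which 2 have one in their windows, and its printed stretch lies before the start at 14518397. The printed arrays of HSP90AB1 and HSP90AA1 lie downstream of the other listed starts of their genes. Exons of the GENCODE annotation cover all 250 bases before the HSPA8 start. All 10 genes matched the RefSeq table. In windows of 300 bases, 250 before to 50 after each listed start, the 2-unit forms occurred at 1 or more starts of 8 of the 10 genes, against 16.2% of all 27305 genes with a window. The 3-unit forms, GAANNTTCNNGAA and TTCNNGAANNTTC, occurred in 4 of the 10, against 0.608% of all genes, and the 4-unit form TTCNNGAANNTTCNNGAA occurred in HSPD1 alone of the 10, against 0.0439%. The forms cover both strands, and the longer ones contain the shorter. A match is a description of these letters only, and HSPE1 and HSPH1 had none in their windows. The HSPD1 array (chr2:197500068-197500085) lies between that HSPD1 start and the RefSeq start of HSPE1, which point away from each other across 538 bases, and 294 bases before the HSPE1 start. From the other RefSeq start of HSPD1, at 197500274, the same array lies downstream. In GENCODE the array falls inside both genes, since HSPD1 spans it there and HSPE1 starts at 197499994.

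The question for each comparison was which chaperone transcripts changed after loss of ALYREF. Per the authors' deposited tables, ALYREF itself fell by 4.14 on the log2 scale with siRNA5 (SE 0.096), and with siRNA8 it fell by 3.67 (SE 0.085). The deposited values are a mean normalized count over all libraries, and a log2 fold change over NTC with its standard error (SE) and adjusted p for each siRNA. Values per library were not analysed here, so the mean of each group was rebuilt from those 3 values and carries no spread of its own. Over all genes the tables held means with a median of 459. All 7 markers of the renal carcinoma line (among them PAX8, VIM and KRT18) had means between 2207 and 53093, 1 of 6 immune markers had a row (CD68, mean 202), and of 5 endothelial markers 0 had a row. In bulk RNA a smaller number of cells and less RNA per cell cannot be told apart.

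With siRNA5, DNAJB1 and HSPD1 rose and HSPB1 and HSP90AB1 fell, while HSPA8, HSPH1, HSP90AA1 and HSPE1 were not called at an adjusted p under 0.05. Thus 2 of 8 members rose, where 24.4% of all genes did, and 2 of 8 fell, where 22.0% of all genes did. With siRNA8, DNAJB1 and HSP90AA1 rose and HSPB1 fell, and the other 5 members were not called. These are 2 of 8 higher, beside 21.0% of all genes, and 1 of 8 lower, beside 20.5%. The shares are near the background in each case, and the counts are therefore no result about chaperones. Every member changed by less than 1.3-fold. The median absolute log2 change of the 8 was 0.13 with siRNA5 and 0.11 with siRNA8, beside 0.25 and 0.23 over all genes and 0.18 and 0.16 over the 3302 genes whose mean reached 1000, a level that all 8 exceed. The 8 were not matched on level with the 3302 genes: the median mean was 14637 for the 8 and 1882 for the 3302. Both comparisons use the same NTC libraries.

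**Figure D1:**
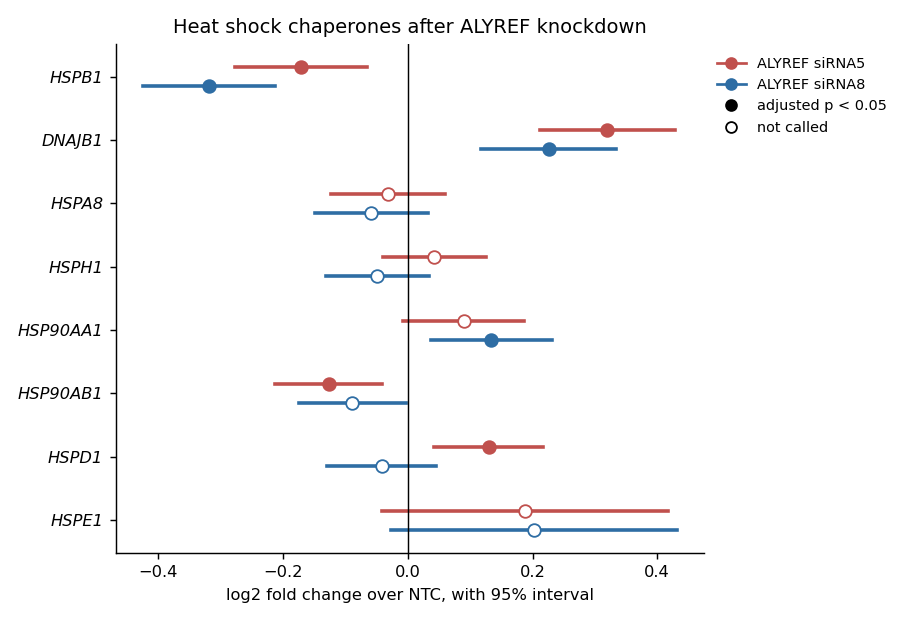
Log2 fold change over NTC of the 8 measured chaperone genes, siRNA5 above siRNA8 in each row, with 95% intervals as lines. Filled points have an adjusted p under 0.05; HSPB1 lies left of 0 and DNAJB1 right of 0 with both siRNAs, and the lines of HSPE1 are the widest.

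HSPB1 (GRCh38 chr7:76302544-76304295, plus strand, 3 exons in the principal GENCODE transcript) encodes HSP27, a small heat shock protein that holds unfolding clients without using ATP. Its rebuilt group means were 7044 normalized counts with siRNA5, 6359 with siRNA8 and 7934 in NTC. Both knockdown means lay below the control, the siRNA8 mean the further. In the authors' deposited tables, made with DESeq2, HSPB1 fell by 0.17 on the log2 scale with siRNA5 (SE 0.054, adjusted p = 0.00466), and with siRNA8 it fell by 0.32 (SE 0.054, adjusted p = 3.98e-08). These are falls of 1.13-fold with siRNA5 and 1.25-fold with siRNA8. The deeper fall with siRNA8 was not called as a difference between the siRNAs (siRNA5 minus siRNA8 0.15, SE 0.077, adjusted p = 0.133), and the interval of that difference ran from -0.0025 to 0.30. This standard error leaves out the covariance of the shared controls and is thus an upper bound. With the control variance rebuilt, HSPB1 did differ (SE 0.055, adjusted p = 0.0182), as did 5404 of all 11679 genes.

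DNAJB1 (chr19:14514770-14529770, minus strand, 3 exons) encodes HSP40, the J-domain protein that delivers clients to HSP70 and stimulates its ATPase. Its rebuilt means were 2923 normalized counts with siRNA5, 2738 with siRNA8 and 2341 in NTC, so that both knockdown means lay above the control. In the authors' deposited tables it rose by 0.32 on the log2 scale with siRNA5 (SE 0.055, adjusted p = 5.48e-08), and with siRNA8 by 0.23 (SE 0.055, adjusted p = 0.000219). These are rises of 1.25-fold with siRNA5 (95% interval 1.16 to 1.35) and 1.17-fold with siRNA8 (95% interval 1.08 to 1.26). DNAJB1 was the member with the largest rise with each siRNA, and it stood higher than 80.6% of all genes by fold change with siRNA5 and than 76.2% with siRNA8. HSPB1 stood higher than 31.5% with siRNA5 and 20.0% with siRNA8. Set against each other within the same libraries, the log2 change of DNAJB1 exceeded that of HSPB1 by 0.49 with siRNA5 (95% interval 0.34 to 0.64) and by 0.54 with siRNA8 (95% interval 0.39 to 0.70). These intervals take the errors of the 2 genes as independent. The 2 genes are the members with the largest rise and the largest fall with each siRNA. A wide gap between them was thus given by the choice and is no test. The shared NTC libraries enter both gaps.

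HSPA8 (chr11:123057489-123063230, minus strand, 9 exons) encodes HSC70, the constitutive cytosolic HSP70, and was the most abundant member, at rank 10 among all genes by mean. Its rebuilt means were 35881 normalized counts with siRNA5, 35215 with siRNA8 and 36680 in NTC, all 3 close together. In the authors' deposited tables its log2 change with siRNA5 was -0.03 (SE 0.046, adjusted p = 0.612), and with siRNA8 it was -0.06 (SE 0.046, adjusted p = 0.319). The 95% intervals ran from -8.15% to 4.19% of the control level with siRNA5 and from -9.86% to 2.25% with siRNA8, so that a change of 10 percent or more lies outside both intervals. HSPH1 (chr13:31134974-31162388, minus strand, 18 exons) encodes HSP105, an exchange factor that releases ADP from HSP70. Its rebuilt means were 10280 with siRNA5, 9648 with siRNA8 and 9982 in NTC, one knockdown above and one below the control. In the authors' deposited tables its log2 change with siRNA5 was 0.04 (SE 0.042, adjusted p = 0.431), and with siRNA8 it was -0.05 (SE 0.042, adjusted p = 0.363). Its intervals, from -2.73% to 9.04% with siRNA5 and from -8.71% to 2.33% with siRNA8, are as narrow as those of HSPA8.

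**Figure D2:**
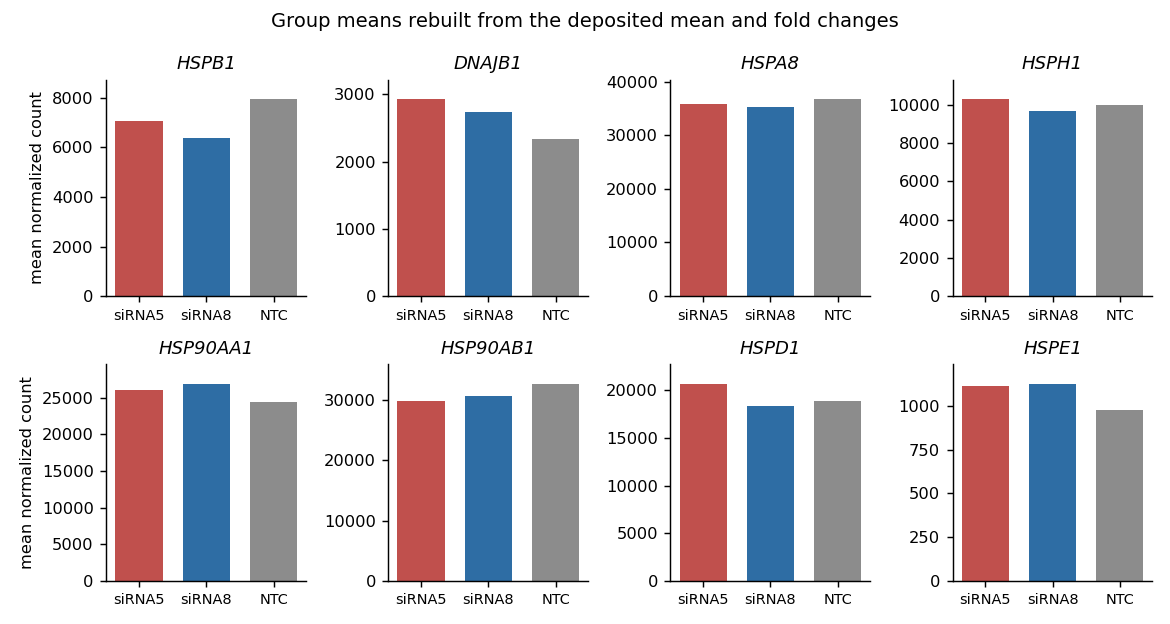
Mean normalized count of each group for the 8 measured genes (siRNA5, siRNA8, NTC), rebuilt from the deposited mean over all libraries and the fold changes, on axes that start at 0. Bars carry no error because no spread within a group can be rebuilt; HSPB1 falls to 7044 with siRNA5 and 6359 with siRNA8, against 7934 in NTC.

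Cytosolic HSP90 has 2 genes. HSP90AA1 (chr14:102080738-102139699, minus strand, 11 exons) is the more stress-responsive, and HSP90AB1 (chr6:44246166-44253888, plus strand, 12 exons) the constitutive one. HSP90AA1 had rebuilt means of 26068 with siRNA5, 26882 with siRNA8 and 24498 in NTC, and HSP90AB1 had 29896, 30686 and 32645 in the same groups. HSP90AA1 thus lay above the control with both siRNAs, and HSP90AB1 below it. The log2 change of HSP90AA1 in the authors' deposited tables with siRNA5 was 0.09 (SE 0.049, adjusted p = 0.127), and with siRNA8 it rose by 0.13 (SE 0.049, adjusted p = 0.0185). HSP90AB1 in the authors' deposited tables fell by 0.13 with siRNA5 (SE 0.044, adjusted p = 0.0106), and its log2 change with siRNA8 was -0.09 (SE 0.044, adjusted p = 0.0903). A call with 1 siRNA only is no difference between them: siRNA5 minus siRNA8 was -0.04 (SE 0.070, adjusted p = 0.688) for HSP90AA1 and -0.04 (SE 0.062, adjusted p = 0.704) for HSP90AB1.

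The 2 genes were also set against each other within the same libraries. The log2 change of HSP90AA1 exceeded that of HSP90AB1 by 0.22 with siRNA5 (95% interval 0.087 to 0.35) and by 0.22 with siRNA8 (95% interval 0.094 to 0.35), again with the errors of the genes taken as independent. Counted per length of the principal GENCODE transcript, HSP90AA1 made up 40.8% of the summed level of both genes with siRNA5 and 40.9% with siRNA8, against 37.3% in NTC. The sum of the 2 genes' normalized counts was 55963 with siRNA5 and 57568 with siRNA8, against 57143 in NTC, so the sum lay on different sides of the control with the 2 siRNAs. The shared NTC libraries enter both differences.

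HSPD1 (chr2:197486581-197516737, minus strand, 12 exons) encodes HSP60, whose rings form the mitochondrial folding chamber. HSPE1 (chr2:197499994-197503457, plus strand, 4 exons) encodes HSP10, the lid of that chamber. HSPD1 had rebuilt means of 20667 normalized counts with siRNA5, 18352 with siRNA8 and 18893 in NTC. Its siRNA5 mean stood above the control and its siRNA8 mean a little below. HSPD1 rose in the authors' deposited tables by 0.13 with siRNA5 (SE 0.045, adjusted p = 0.0102), and its log2 change with siRNA8 was -0.04 (SE 0.045, adjusted p = 0.477). With the standard errors as an upper bound, HSPD1 was the 1 member of 8 whose changes differed between the siRNAs, by 0.17 (SE 0.063, 95% interval 0.048 to 0.30, adjusted p = 0.0240), where 32.0% of all genes differed. With the rebuilt control variance, HSPB1 was called as well, where 5404 of all 11679 genes were called.

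HSPE1 had rebuilt means of 1114 with siRNA5, 1125 with siRNA8 and 978 in NTC. Both knockdown means stood above the control by about as much as the siRNA8 mean of DNAJB1 did, but HSPE1 was not called. In the authors' deposited tables its log2 change with siRNA5 was 0.19 (SE 0.12, adjusted p = 0.185), and with siRNA8 it was 0.20 (SE 0.12, adjusted p = 0.157). The intervals ran from -2.85% to 33.6% of the control level with siRNA5 and from -1.82% to 34.9% with siRNA8, and both hold the rises seen for DNAJB1. The standard error of HSPE1 with siRNA5 was above that of 99.1% of the 1292 genes with a mean between 0.8 and 1.25 times its own, whose median was 0.075. The spread between libraries beyond counting error, rebuilt from the standard errors, was 7.54% for HSPE1 and between 2.75% and 3.57% for the other 7 members. HSPE1 exceeded HSPD1 in log2 change by 0.06 with siRNA5 (95% interval -0.19 to 0.30) and by 0.24 with siRNA8 (95% interval -0.00066 to 0.49), and both intervals hold equal changes. Per length of the principal transcripts, HSPD1 stood at 7.18 times HSPE1 with siRNA5 and 6.31 times with siRNA8, against 7.48 times in NTC.

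**Figure D3:**
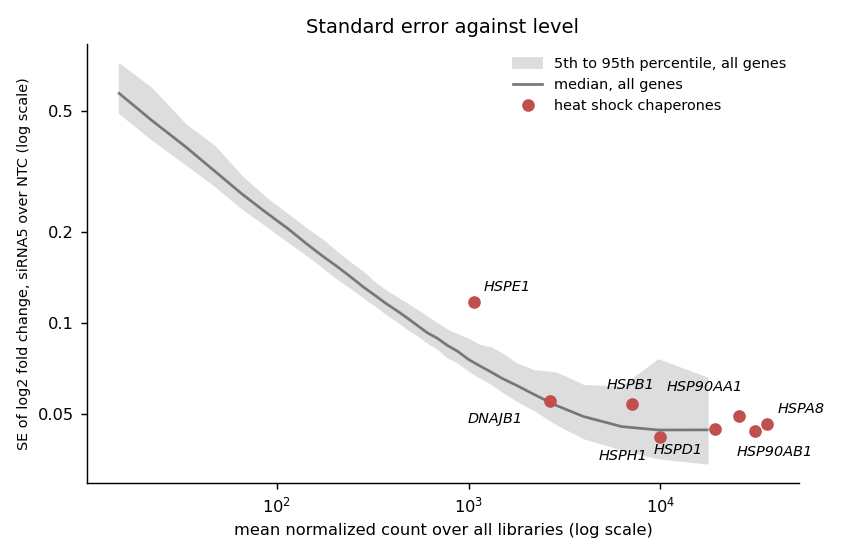
Standard error of the log2 fold change, siRNA5 over NTC, against the mean normalized count over all libraries, both on log axes; the grey band holds the 5th to 95th percentile of genes in bins of like mean and the line their median. HSPE1 lies above the band, and the other 7 chaperones lie within the band or to the right of its end. The band ends at the median mean of the last bin (17574), and that bin itself holds genes with higher means.

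Chaperone genes have many processed pseudogenes, and short reads from these and from paralogues may not be assigned to 1 gene. Of the windows of 42 bases (the read length) along the principal GENCODE transcript, 73.1% of HSPA1A and 73.7% of HSPA1B also occurred in a transcript of another gene, for HSPA1A all of them in HSPA1B. Among the measured members the share was 33.1% for HSPD1, 28.7% for HSPE1, 25.5% for HSP90AA1, 25.5% for HSP90AB1 and 24.6% for HSPA8. It was 13.4% for HSPB1 and 4.32% for DNAJB1, and HSPH1 had 0 of 5150 windows in common with another gene. The windows of HSPD1 and HSPE1 occurred in 12 and 11 annotated pseudogenes. HSPE1 further shared 152 of its 909 windows with the read-through gene HSPE1-MOB4, and 240 windows matched, on the opposite strand, an HSPD1 transcript that overlaps it. Levels of these genes are therefore uncertain to the extent that counting could split or drop such reads, and whether this bears on any fold change was not tested.

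**Figure D4:**
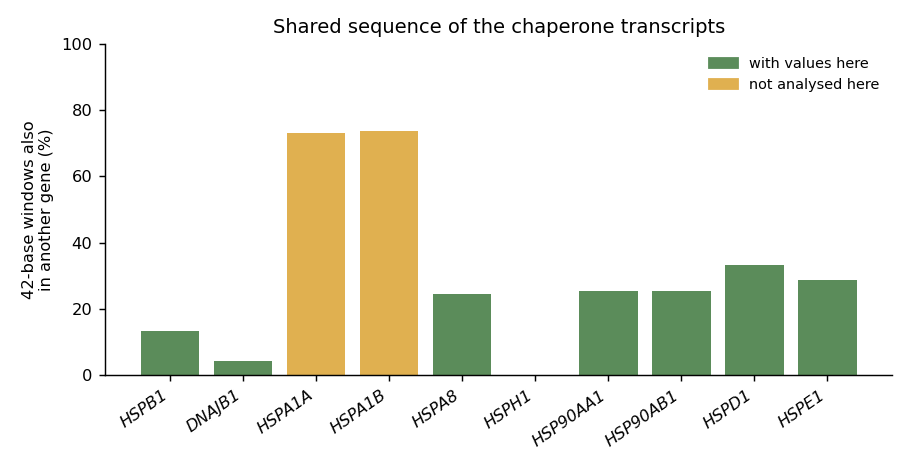
Percent of the 42-base windows of each principal transcript that occur, on the same strand, in a transcript of another GENCODE 29 gene, for the 10 chaperone genes. HSPA1A and HSPA1B stand above 70 percent and HSPH1 at 0.

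Together the 8 members summed to 133873 normalized counts with siRNA5 and 131005 with siRNA8, against 133953 in NTC. This was 1.05% of all gene counts with siRNA5, 1.04% with siRNA8 and 1.07% in NTC. Per kilobase of principal transcript the order of the mean level over all libraries was HSPA8 (14586), HSP90AB1 (11621), HSPD1 (7863), HSPB1 (7824), HSP90AA1 (7640), HSPH1 (1921), DNAJB1 (1178) and HSPE1 (1129). HSPD1, HSPB1 and HSP90AA1 lie within 3 percent of each other there, and no order is read among them. The same holds for DNAJB1 and HSPE1, given the wide spread of HSPE1. The spread between libraries does not measure errors between genes, such as those from the transcript chosen or from reads lost to shared sequence. How far such errors bear on the rest of the order was not tested.

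The heat shock factors were read beside the chaperones. The log2 change of HSF1, the factor that induces them, was 0.08 with siRNA5 (SE 0.059, adjusted p = 0.307), and with siRNA8 it was 0.10 (SE 0.058, adjusted p = 0.187), both from the authors' deposited tables. HSF2, its paralogue, rose in the authors' deposited tables by 0.48 with siRNA5 (SE 0.13, adjusted p = 0.00117), and with siRNA8 by 0.57 (SE 0.13, adjusted p = 8.74e-05). HSBP1, a small protein that binds HSF1, had in the authors' deposited tables a log2 change of 0.09 with siRNA5 (SE 0.048, adjusted p = 0.102), and with siRNA8 it fell by 0.23 (SE 0.048, adjusted p = 7.76e-06). Of the 9 listed factors and regulators, 2 rose and 2 fell with siRNA5, and 1 rose and 3 fell with siRNA8. With 24.4% of all genes higher and 22.0% lower with siRNA5, and 21.0% and 20.5% with siRNA8, the siRNA5 counts are near the background. SIRT1, a deacetylase that acts on HSF1, fell in the authors' deposited tables by 0.47 with siRNA5 and 0.37 with siRNA8. HSF2BP fell there by 0.87 with siRNA5 and 0.97 with siRNA8, and STUB1, which encodes the ubiquitin ligase CHIP, rose by 0.37 with siRNA5.

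Among 19 genes listed as co-chaperones of HSP90, 12 rose and 2 fell with siRNA5, and 9 rose and 0 fell with siRNA8. The list also holds TRAP1, an HSP90 gene and no co-chaperone, which rose by 0.18 with siRNA8. Over all genes 24.4% rose and 22.0% fell with siRNA5, and 21.0% rose and 20.5% fell with siRNA8; of the 3302 abundant genes, 1221 rose and 805 fell with siRNA5, and 1022 rose and 825 fell with siRNA8. The median log2 changes of the list were 0.20 with siRNA5 and 0.18 with siRNA8, beside 0.01 and 0.01 over all genes. ST13, which links HSP70 to HSP90, rose in the authors' deposited tables by 0.42 with siRNA5 and 0.62 with siRNA8. CHORDC1 rose there by 0.39 with siRNA5 and 0.33 with siRNA8. With siRNA5, CDC37L1 rose by 0.70 and the myosin chaperone UNC45A fell by 0.16 in the authors' deposited table. Neither was called with siRNA8, but the siRNA difference of UNC45A was not called either (-0.10, SE 0.095, adjusted p = 0.463). NUDC went both ways in the authors' deposited tables: it fell by 0.20 with siRNA5, and it rose by 0.28 with siRNA8.

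TRiC is the chaperonin of the cytosol, and prefoldin hands it clients such as actin and tubulin. Among their 13 measured subunits, 6 rose and 2 fell with siRNA5 (median 0.08), and 7 rose and 0 fell with siRNA8 (median 0.12), beside 24.4% higher and 22.0% lower of all genes with siRNA5 and 21.0% and 20.5% with siRNA8. CCT2 rose in the authors' deposited tables by 0.28 with siRNA5 and 0.22 with siRNA8, and PFDN2 by 0.21 with siRNA5 and 0.57 with siRNA8. With siRNA5, CCT8 rose by 0.22 and CCT7 fell by 0.31 in the authors' deposited table. PFDN1 in the authors' deposited tables fell by 0.14 with siRNA5, and it rose by 0.31 with siRNA8.

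Other genes of the HSP70 and HSP110 families gave different counts with the 2 siRNAs. Of 7 measured, 5 rose and 1 fell with siRNA5 (median 0.18), and 1 rose and 3 fell with siRNA8 (median -0.13), beside 24.4% higher and 22.0% lower of all genes with siRNA5 and 21.0% and 20.5% with siRNA8. The test of the difference called 5 of the 7, all higher with siRNA5, where it called 32.0% of all genes, 2008 of them higher and 1731 lower with siRNA5. HSPA4, an HSP110 gene like HSPH1, rose in the authors' deposited tables by 0.32 with siRNA5 and 0.26 with siRNA8. HSPA12A, a distant relative, fell there by 0.34 with siRNA5 and 0.67 with siRNA8. With siRNA5, HSPA13 rose by 0.74 and HSPA14 by 0.45 in the authors' deposited table. HSPA4L in the authors' deposited tables rose by 0.18 with siRNA5, and it fell by 0.30 with siRNA8.

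J-domain genes are the class of DNAJB1. Of 27 measured, 10 rose and 6 fell with siRNA5 (median 0.08), and 7 rose and 7 fell with siRNA8 (median 0.07). Beside 24.4% higher and 22.0% lower of all genes with siRNA5, and 21.0% and 20.5% with siRNA8, the falls with siRNA5 and both counts with siRNA8 are near the background. DNAJB14 rose in the authors' deposited tables by 0.54 with siRNA5 and 0.37 with siRNA8, DNAJC30 fell by 1.04 with siRNA5 and 0.78 with siRNA8, and DNAJB2 fell by 0.89 with siRNA5 and 0.27 with siRNA8. With siRNA5, DNAJC6, which encodes the clathrin-uncoating partner auxilin, rose by 1.07 and DNAJC27 by 0.64 in the authors' deposited table. For DNAJC27 the siRNA difference was not called (0.46, SE 0.33, adjusted p = 0.309). DNAJB5 fell by 0.85 with siRNA8 in the authors' deposited table. DNAJC11, a mitochondrial protein, fell in the authors' deposited tables by 0.22 with siRNA5, and it rose by 0.37 with siRNA8.

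The next list holds BAG proteins and other partners of HSP70. Exchange factors among them release ADP from HSP70 and so let clients go, whereas SGTA and SGTB, also on the list, are co-chaperones with TPR domains and no exchange factors. Of 10 measured, 1 rose and 1 fell with siRNA5 (median -0.09), and 2 rose and 4 fell with siRNA8 (median -0.12), beside 24.4% higher and 22.0% lower of all genes with siRNA5 and 21.0% and 20.5% with siRNA8. The mitochondrial GRPEL2 rose in the authors' deposited tables by 0.76 with siRNA5 and 0.35 with siRNA8, and HSPBP1 fell by 0.33 with siRNA5 and 0.20 with siRNA8. With siRNA8, BAG2 fell by 1.22, SGTB fell by 1.02 and BAG1 rose by 0.36 in the authors' deposited table. The list of further HSPB symbols had 2 measured genes, HSPB8 and HSPB11. HSPB11 was listed by its symbol only and is not read as a small heat shock gene. In the authors' deposited table HSPB8 fell by 0.38 and HSPB11 rose by 0.23 with siRNA5, while neither was called with siRNA8. The siRNA difference of HSPB11 was not called (0.12, SE 0.13, adjusted p = 0.544). Among 10 genes of mitochondrial proteostasis, 4 rose and 1 fell with siRNA5 (median 0.16), and 3 rose and 1 fell with siRNA8 (median 0.03), to be read against the same shares of all genes. LONP1, a matrix protease, rose in the authors' deposited tables by 0.59 with siRNA5 and 0.17 with siRNA8. The protease gene CLPP rose there by 0.32 with siRNA5 and 0.23 with siRNA8, PMPCB, a presequence peptidase, by 0.20 with siRNA5 and 0.23 with siRNA8, and HTRA2 fell by 0.45 with siRNA5 and 0.28 with siRNA8. The lists were described by counts and medians and were not tested as lists. Abundant genes were called more often than all genes: of 3302 with a mean of at least 1000, 1221 rose with siRNA5. Rises above the share of all genes, in these lists and the J-domain list, are therefore not read as enrichment.

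**Figure D5:**
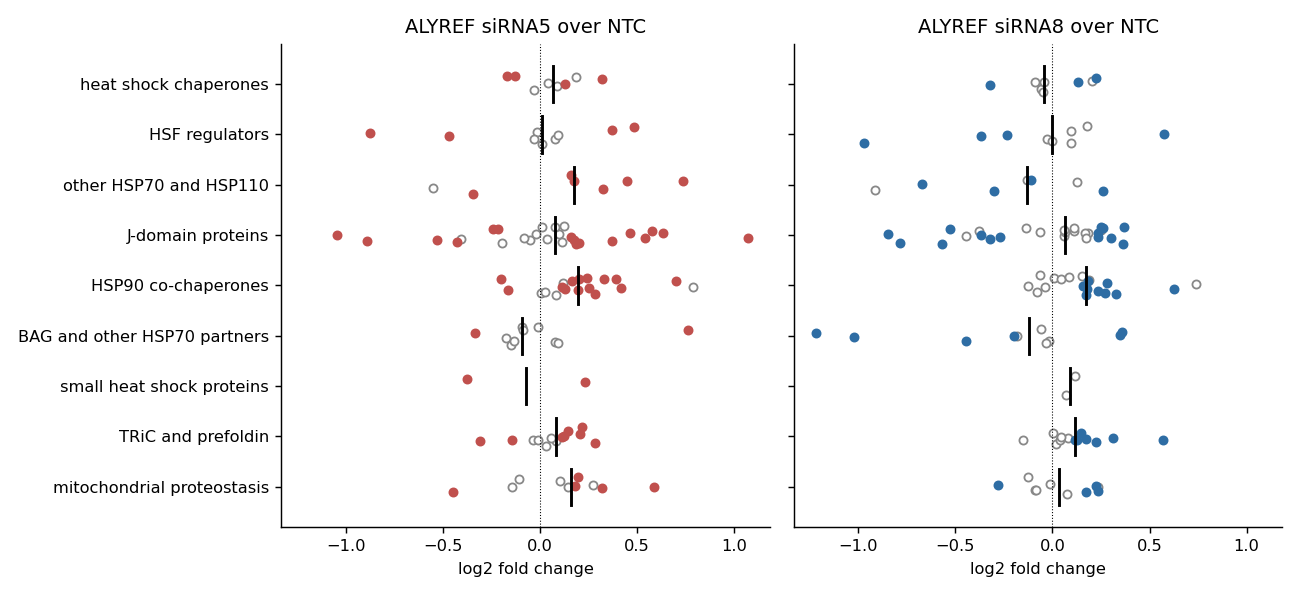
Log2 fold change over NTC of every measured gene of the chaperone lists, with siRNA5 on the left and siRNA8 on the right; filled points have an adjusted p under 0.05, open points do not, and the bar is the median of the list. The 8 heat shock chaperones in the top row span -0.17 to 0.32 with siRNA5 and -0.32 to 0.23 with siRNA8, while single J-domain genes (siRNA5) and BAG2 and SGTB (siRNA8) pass 1 in absolute value.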

How the data were processed

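Polyadenylated RNA was read as paired ends of 42 bases from directional libraries, per the labels' protocols. Per the submitters' processing notes, STAR, Picard, HTSeq and DESeq2 were used with the genome build hg19; no versions or settings were given. The authors deposited 1 table per siRNA with 11681 rows, 11679 genes and 2 HTSeq counters, which hold 7.85% of the summed means and were left out. Per the file headers, each row holds the signal as a mean normalized count over all libraries (equal in both tables), a log2 fold change and its SE, the Wald score, and p-values with Benjamini-Hochberg adjustment. The authors' Wald scores and adjusted p-values were recomputed from the tables without difference beyond rounding. The direction was read from ALYREF, and each table was tied to its siRNA by the number in its name and in the library titles. The tables state no depth per library.

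Group means were solved from the mean and both fold changes, taking 2 libraries per group. Relative depths fitted to the standard errors were 0.826 for siRNA5 and 0.893 for siRNA8. They explained 97.0% of the variance of the difference of squared standard errors, weighted by the mean, over 10256 genes. The NTC depth of 1.35 was not fitted but set as the inverse of the product of the fitted depths. The rebuilt control variance and the rebuilt spread between libraries rest on that setting. For siRNA5 minus siRNA8, the log2 fold changes were subtracted and their standard errors added in quadrature. Two-sided normal p-values were adjusted by Benjamini-Hochberg over 11679 genes. The steps were also run on simulated counts, with standard errors set from the spread used to draw them. That run cannot decide how the procedure holds for the deposited standard errors. Python 3.11.15, pandas 2.3.3 and scipy 1.17.1 were used. Alternatives were a threshold of 0.01, Bonferroni adjustment, a mean of at least 50, centring on the median gene, a log2 change of at least 0.32 and a rebuilt control variance.

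The members and gene lists were chosen with earlier results of these data known. Named are the 8 measured members, ALYREF, HSF1, HSF2, HSBP1 and, per list and siRNA, the 2 largest rises and falls past the threshold with a mean of at least 50. The plan allowed for counts per library, which these tables do not hold. Coordinates are GRCh38 from RefSeq or GENCODE 29, not the authors' build.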

Additional observations from a re-analysis of the deposited data

Results flagged for a closer look

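The results below were picked out because the effects of the 2 siRNAs differed by a test of the difference itself (siRNA5 minus siRNA8 on the log2 scale, adjusted p under 0.05 over all genes). Among the chaperones this held for HSPD1, with a difference of 0.17 (SE 0.063, adjusted p = 0.0240). ALYREF itself differed by -0.47, and HSBP1 by 0.33.

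The difference was 0.37 for STUB1, 0.33 for HSPA12A, 0.61 for HSPA13, 0.58 for HSPA14 and 0.48 for HSPA4L. It was -0.62 for DNAJB2, 0.89 for DNAJC6, 0.89 for DNAJB5 and -0.58 for DNAJC11. Among co-chaperones and other HSP70 partners it was -0.48 for NUDC, 0.55 for CDC37L1, -0.21 for ST13, 0.42 for GRPEL2, 1.07 for BAG2, 1.12 for SGTB and -0.53 for BAG1. HSPB8 differed by -0.44 and LONP1 by 0.41, and among chaperonin and prefoldin subunits CCT7 differed by -0.35, PFDN1 by -0.46, CCT8 by 0.17 and PFDN2 by -0.36. With 32.0% of all genes differing, such a difference is common in these tables.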

How the results depend on the processing

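Of the 4 members called with siRNA5, 2 were called at a threshold of 0.01 (HSPB1 and DNAJB1), 1 with Bonferroni adjustment and 1 with a log2 change of at least 0.32 (DNAJB1 in both). DNAJB1 only just passed the cut of 0.32, with a log2 change of 0.3201 with siRNA5. Of the 3 called with siRNA8, HSPB1 and DNAJB1 were called at 0.01, 1 with Bonferroni adjustment (HSPB1) and 0 with a log2 change of at least 0.32, of which HSPB1 fell just short; 4 members had an unadjusted p under 0.05 with siRNA8 in the authors' DESeq2 fit. Over all 11679 genes, 5423 were called with siRNA5 (4246 at 0.01, 2233 with Bonferroni adjustment, 3683 at a log2 change of 0.32) and 4847 with siRNA8 (3732, 1912 and 3169 at the same settings). Of the siRNA differences, 0 members were called at 0.01, 0 with Bonferroni adjustment and 0 with a log2 change of at least 0.32, where 1 member, HSPD1, had an unadjusted p under 0.05, and 2 (HSPD1 and HSPB1) were called with the rebuilt control variance. Over all genes the differences called were 3739, with 2784, 1356 and 3074 at those settings and 5404 with the rebuilt variance. The filter on means and the centring left the counts of members as they were. Over all genes they moved the siRNA5 count from 5423 to 5246 (filter) and 5398 (centring). No setting turned the direction of a called change of a member. No paired analysis was possible because the tables hold no values per library, and for the same reason no replicate could be left out. The depth per library is unknown, and the standard errors of the 8 members set the limits given with their intervals.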
